A study of Xenopus laevis and Xenopus tropicalis with 12 samples.

Results

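The genes described here are the FGF receptors fgfr1, fgfr2, fgfr3 and fgfr4, the ErbB receptor erbb2 and the Eph receptor ligand efnb1, which are 6 of the 28165 gene models in the deposited count files. They were picked by their symbol in the deposited annotation, each symbol matched 1 model, and all 6 models passed the filter on low counts in both species. The vegetal and animal levels of these genes were known when they were picked, so those levels are given as a description, without a p-value. RNA was measured by sequencing in oocytes of Xenopus laevis and Xenopus tropicalis that had been dissected by hand into an animal hemisphere, the pigmented side with the nucleus, and a vegetal hemisphere, the yolk-rich side. Stage VI oocytes of X. laevis gave 4 animal and 4 vegetal libraries. Female A supplied batches A_t1 and A_t2, and female B supplied B_t1 and B_t2. X. tropicalis gave 2 animal and 2 vegetal libraries of full grown oocytes, from females 1 and 2. No treatment or genotype is given in the labels for any group. Each species is thus represented by 2 females, and batches of 1 female are not separate animals. The labels name the batches without saying how they differ.

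FGF receptors are receptor tyrosine kinases. With heparan sulfate they bind FGF ligands, pair up and phosphorylate docking proteins that pass the signal to Ras, Raf, MEK and ERK. In the Xenopus embryo this pathway is known for the formation and upkeep of mesoderm, and maternal receptor mRNA is one source of the receptors that the early embryo uses. ErbB2 is a receptor tyrosine kinase with no known soluble ligand of its own, which signals by pairing with other ErbB receptors. Ephrin-B1, the product of efnb1, is a membrane-bound ligand of Eph receptors that also signals into the cell that carries it, and in Xenopus the FGF receptor is known to associate with it.

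The libraries held between 30416352 and 45235154 counts in X. laevis and between 7772801 and 28392285 in X. tropicalis. Levels are given as CPM (counts per 1000000 counts), with library sizes scaled by TMM within each species, so a level is a share of the counted RNA of a hemisphere and not an amount per oocyte. In a bulk library, fewer cells of a type and less RNA per cell cannot be told apart. Without transcript lengths, levels are not compared between genes. X. laevis reads were counted on X. tropicalis models, so L and S copies, the chromosome sets of the X. laevis genome, have no separate values. The X. laevis gene table used here lists L and S copies for fgfr2, fgfr3 and fgfr4 and an L copy for fgfr1, erbb2 and efnb1. The 4 FGF receptors are paralogs, and reads from stretches that they share may have been split between them. Of the oocyte markers, the envelope gene zp2 was at 255.7 CPM or more in every library and the oocyte growth factor gene gdf9 at 17.4 CPM or more. In X. laevis the summed level of 10 genes listed as follicle cell markers was 81.7 to 155 CPM in animal and 296 to 367 CPM in vegetal libraries. Nearly all of it was the steroid hydroxylase cyp17a1, at 78.8 to 151 and 293 to 364 CPM. The sum thus follows that gene and is no measure of follicle cells. The follicle markers cyp19a1 and fshr stayed at or under 0.0996 CPM in X. laevis. Others were higher there: star stood at 0.894 to 2.54 CPM, foxl2 at 0.224 to 0.668 CPM and amh at up to 0.787 CPM. In X. tropicalis the summed level of the 10 genes was 0.661 to 2.19 CPM in animal and 0.899 to 1.18 CPM in vegetal libraries. There cyp17a1, cyp11a1, fshr and foxl2 were at 0 in all 4 libraries, while cyp19a1 was at up to 0.131 CPM and amh at up to 0.104 CPM. The part of these markers in the levels below was not tested.

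Among the FGF receptors, fgfr2 (model Xetrov72025163) differed most between the hemispheres, and it did so in both species. In X. laevis animal libraries its level was 6.23 (A_t1), 7.99 (A_t2), 4.66 (B_t1) and 4.57 CPM (B_t2). In the vegetal libraries it was 124 (A_t1), 161 (A_t2), 68.2 (B_t1) and 67.2 CPM (B_t2). Every vegetal library lay far above every animal one, and within each hemisphere both batches of female A lay above both of female B. The fitted difference was 4.11 ± 0.13 on the log2 scale (vegetal minus animal, ± SE, 4 pairs), or 17.2-fold, and ranked 26 from the vegetal end among 14517 models tested. In X. tropicalis, fgfr2 stood at 7.52 (female 1) and 8.63 CPM (female 2) in animal libraries and at 154 and 123 CPM in vegetal ones. The hemispheres were again wide apart, and the difference of 4.02 ± 0.09 (SE, 2 pairs), or 16.2-fold, ranked 21 among 12916 models. That SE draws mostly on a spread shared by all models. The 2 pair values had an SD of 0.37, and with no block for the female the SE was 0.20. The species thus gave nearly the same value, with a difference of -0.04 ± 0.21 (X. tropicalis minus X. laevis). Over the 6 pairs the log2 difference ran from 3.81 in X. tropicalis female 2 to 4.33 in X. tropicalis female 1. In X. laevis the pairs of female A (4.30 and 4.32) lay above those of female B (3.86 and 3.86).

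**Figure D1:**
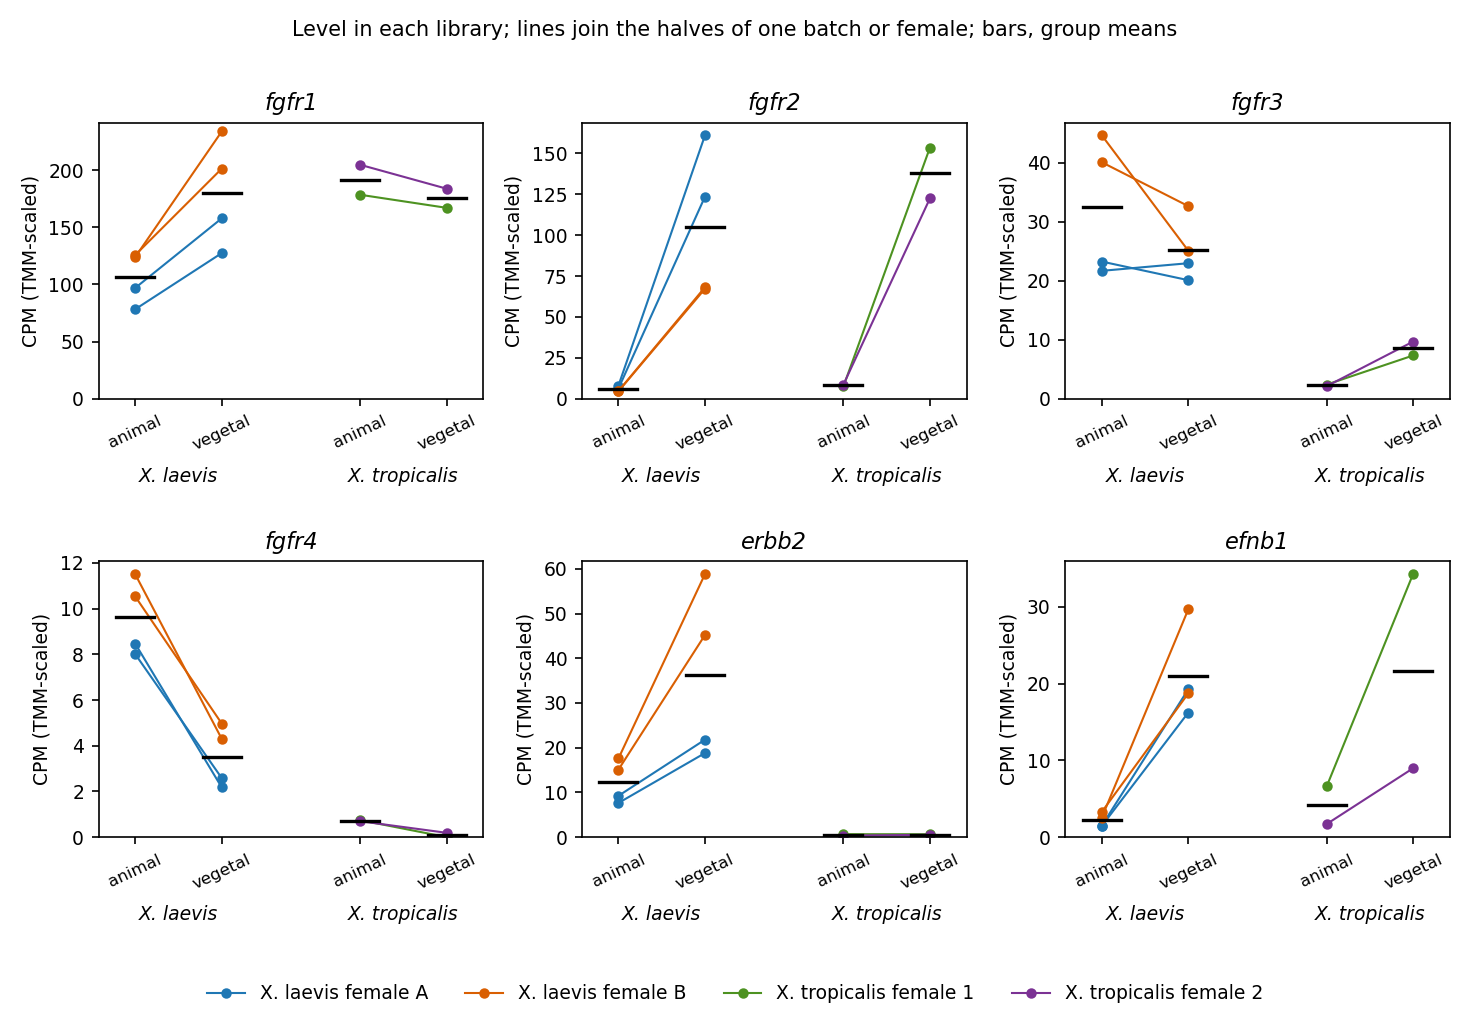
Level of each gene in CPM (vertical axis, linear, from 0) in the 12 libraries, by hemisphere and species, with lines joining the hemispheres of 1 batch or female and black bars at the group means. The lines of fgfr2 and efnb1 climb to the vegetal side in both species and those of fgfr4 go down, while those of fgfr3 take opposite courses in X. laevis and X. tropicalis except in batch A_t1; fgfr4 and erbb2 in X. tropicalis lie close to 0, at 0.744 CPM or less.

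The level of fgfr1 (Xetrov72038257), a truncated form of which has been used to block FGF signalling in Xenopus embryos, showed a vegetal excess in X. laevis and none in X. tropicalis. In X. laevis it was 78.2 (A_t1), 96.9 (A_t2), 124 (B_t1) and 126 CPM (B_t2) in animal libraries. In vegetal libraries it was 127 (A_t1), 158 (A_t2), 234 (B_t1) and 201 CPM (B_t2). The highest animal library (126 CPM) was just under the lowest vegetal one (127 CPM), but each pair had the vegetal side higher, by 0.68 to 0.92 on the log2 scale. The fitted difference was 0.75 ± 0.08, or 1.68-fold. In X. tropicalis the animal libraries held 178 (female 1) and 205 CPM (female 2), and the vegetal libraries 167 and 184 CPM. These values overlapped, and both pairs had the animal side slightly higher (-0.13 ± 0.06). From low to high, the order of the 4 groups was X. laevis animal, X. tropicalis vegetal, X. laevis vegetal and X. tropicalis animal, by means of 106, 175, 180 and 192 CPM, and the upper 3 overlapped.

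The level of fgfr3 (Xetrov72019483), known in mammals as a regulator of bone growth, had opposite leanings in the species. In X. laevis animal libraries it was 21.7 (A_t1), 23.3 (A_t2), 44.7 (B_t1) and 40.1 CPM (B_t2). In vegetal libraries it was 23.0 (A_t1), 20.1 (A_t2), 25.1 (B_t1) and 32.7 CPM (B_t2). The hemispheres overlapped, and the pairs ran from -0.83 in B_t1 to 0.08 in A_t1, with a fitted value of -0.32 ± 0.14. In X. tropicalis the animal libraries held 2.40 (female 1) and 2.12 CPM (female 2), and the vegetal libraries 7.33 and 9.69 CPM. There the groups did not overlap, and the vegetal excess was 1.99 ± 0.22, or 3.97-fold, from 29 and 61 reads in animal and 56 and 205 reads in vegetal libraries. The difference between the species was 2.29 ± 0.32 and ranked 48 from the X. tropicalis end among 11688 models measured in both.

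The receptor gene fgfr4 (Xetrov72038217), which is known for a part in neural development of Xenopus, was the member with an animal excess in both species. In X. laevis animal libraries it stood at 8.01 (A_t1), 8.47 (A_t2), 10.5 (B_t1) and 11.5 CPM (B_t2). In vegetal libraries it stood at 2.58 (A_t1), 2.18 (A_t2), 4.97 (B_t1) and 4.30 CPM (B_t2). No vegetal library reached the lowest animal one, and the fitted difference was -1.51 ± 0.16, or 2.85-fold towards the animal side. In X. tropicalis the gene was close to the limit of the depth. The animal libraries held 9 reads (female 1, 0.744 CPM) and 20 reads (female 2, 0.696 CPM). The vegetal library of female 2 held 4 reads (0.189 CPM) and that of female 1 none, a count that allows a level of up to 0.386 CPM (3 counts). Over both females, 29 reads in animal libraries gave 0.722 CPM of the unscaled totals (exact Poisson 95% interval 0.484 to 1.04) and 4 reads in vegetal libraries 0.136 (0.0370 to 0.348), intervals that cover counting error only. The fitted difference of -2.32 ± 0.74 depends on the small number of vegetal reads, and its difference from X. laevis was -0.84 ± 0.78.

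Since each library gives reads of all 4 receptors, the proportions between them can be followed without any scaling between libraries. In X. laevis the ratio of fgfr2 to fgfr4 reads was higher in the vegetal than in the animal hemisphere by 61.5-fold (A_t1), 78.4-fold (A_t2), 31.0-fold (B_t1) and 39.3-fold (B_t2). In X. tropicalis female 2 it was higher by 52.3-fold, and female 1 gave no ratio since its vegetal fgfr4 count was 0. The ratio of fgfr2 to fgfr1 was 7.75-fold to 12.4-fold higher on the vegetal side in X. laevis, and 21.8-fold and 15.8-fold higher in X. tropicalis. The ratio of fgfr3 to fgfr1 separated the species: it was lower on the vegetal side in all 4 X. laevis pairs, with log2 changes from -1.75 to -0.62, and higher in both X. tropicalis pairs (1.71 and 2.35). The fgfr2 to fgfr1 ratio was thus higher on the vegetal side in all 6 pairs.

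The ErbB receptor erbb2 (Xetrov72016724) showed a vegetal excess in X. laevis and was close to the depth limit in X. tropicalis. In X. laevis animal libraries its level was 7.64 (A_t1), 9.24 (A_t2), 15.1 (B_t1) and 17.6 CPM (B_t2). In vegetal libraries it was 18.8 (A_t1), 21.8 (A_t2), 45.2 (B_t1) and 58.8 CPM (B_t2). The lowest vegetal library lay just above the highest animal one, and within each female the hemispheres were well apart. The fitted difference was 1.47 ± 0.12, or 2.77-fold. The X. tropicalis libraries held 8 and 10 reads on the animal side (0.661 and 0.348 CPM) and 5 and 11 on the vegetal side (0.655 and 0.520 CPM, females 1 and 2). These levels overlapped, with a fitted value of 0.34 ± 0.58 from these few reads, and the difference from X. laevis was -1.12 ± 0.45.

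The ephrin gene efnb1 (Xetrov72016492) had a vegetal excess in all 6 pairs. Its level in X. laevis animal libraries was 1.44 (A_t1), 1.47 (A_t2), 3.27 (B_t1) and 2.52 CPM (B_t2). In vegetal libraries it was 16.2 (A_t1), 19.2 (A_t2), 18.7 (B_t1) and 29.6 CPM (B_t2). The groups were far apart, with a difference of 3.31 ± 0.21, or 9.90-fold, which ranked 59 among the 14517 models. Batch B_t1 had the lowest pair value (2.50) and the other 3 lay between 3.45 and 3.67. In X. tropicalis the females were far apart: female 1 held 6.61 CPM (animal) and 34.3 CPM (vegetal), and female 2 held 1.71 and 8.99 CPM. Female 1 thus stood 3.88-fold higher than female 2 in the animal and 3.82-fold higher in the vegetal libraries, while the difference between hemispheres was alike in both (2.36 and 2.32). The fitted value was 2.38 ± 0.17, or 5.21-fold. With the females not kept as a block, the value was 2.41 ± 0.95. The difference from X. laevis was -0.92 ± 0.34.

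**Figure D2:**
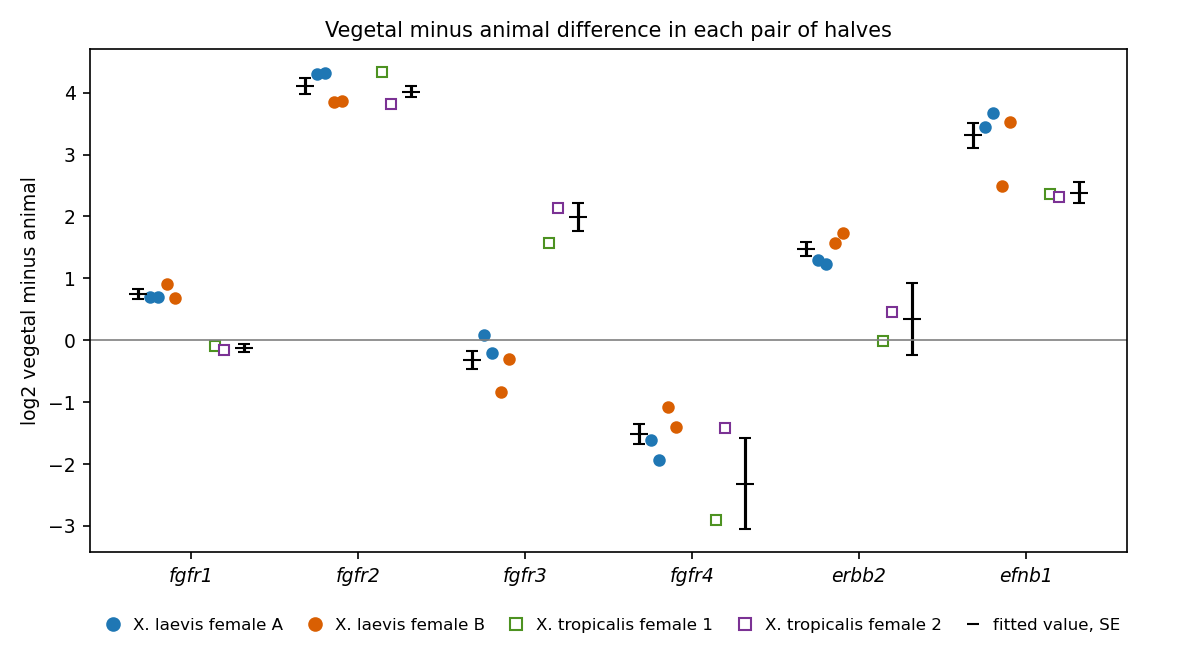
Vegetal minus animal difference in log2 CPM (vertical axis; 2 counts added before the log) in each pair of hemispheres, with circles for X. laevis, open squares for X. tropicalis and black marks for the fitted value ± SE. All 6 pairs of fgfr2 lie between 3.81 and 4.33, and the pairs of fgfr1 and fgfr3 lie on different levels in the 2 species.

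With the 4 pairs of X. laevis, 4 of the 6 genes were called vegetal at an adjusted p under 0.05 (fgfr1, fgfr2, erbb2 and efnb1; edgeR, Benjamini-Hochberg), as were 13.2% of all models tested, and fgfr4 was called animal, as were 14.4% (27.7% in either direction). In X. tropicalis fgfr2, fgfr3 and efnb1 were called vegetal, as were 15.6% of all models, and fgfr4 animal, as were 17.3% (33% in either direction). The libraries of the hemispheres did not overlap, with the vegetal side higher, for 4 genes in X. laevis (9.25% of all models) and 3 in X. tropicalis (17.5%), and with the animal side higher for fgfr4 in each (12% and 18.1%). The difference between species was called for fgfr3, as for 5.77% of all models on that side, and for fgfr1, as for 6.7% on the other (12.5% in all). With no block for the female, the X. tropicalis calls of fgfr3, fgfr4 and efnb1 were lost, and that of fgfr4 was also lost with DESeq2. Without X. tropicalis female 2, both calls of a difference between species were lost. For the 6 genes the log2 difference had a median of 1.11 (X. laevis) and 1.17 (X. tropicalis), beside -0.01 in both over all models tested. Single genes ran from -1.51 (fgfr4) to 4.11 (fgfr2) in X. laevis and from -2.32 (fgfr4) to 4.02 (fgfr2) in X. tropicalis. The genes were picked with these contrasts known, so nothing is read from the counts or the medians.

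The same values can be set beside those of other receptor tyrosine kinases, from a list drawn up from general knowledge. That list leaves out the Eph receptors and the other ErbB receptors, which are kinases too and are on separate lists below. Over all models 13.2% were called vegetal and 14.4% animal in X. laevis, and 15.6% and 17.3% in X. tropicalis. Nothing is read from the counts of called kinases beside those shares. Of 24 other kinases tested in X. laevis, 3 were called vegetal and 5 animal, and their log2 differences ran from -1.57 (kdr, a VEGF receptor) to 0.82 (ddr1, a collagen receptor), with a median of 0.06. Of 13 tested in X. tropicalis, 2 were called vegetal and 0 animal (edgeR; 1 animal at an unadjusted p under 0.05, and 0 with DESeq2), and the range was -1.20 (flt3) to 0.47 (ryk, a Wnt co-receptor). The values of fgfr2 in both species, of erbb2 in X. laevis, and of fgfr3 and fgfr4 in X. tropicalis lay outside these ranges. The values of fgfr1 in both species, of fgfr3 and fgfr4 in X. laevis and of erbb2 in X. tropicalis lay within them. The X. tropicalis value of fgfr4 (-2.32 ± 0.74) came from few reads, and that of flt3 was -1.20 ± 0.52. The genes were picked with their hemisphere values known and the other kinases were not, so nothing is read from these positions. With no batch block, the other kinases called in X. laevis became 1 vegetal and 2 animal, beside 899 and 1130 of 14517 models.

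**Figure D3:**
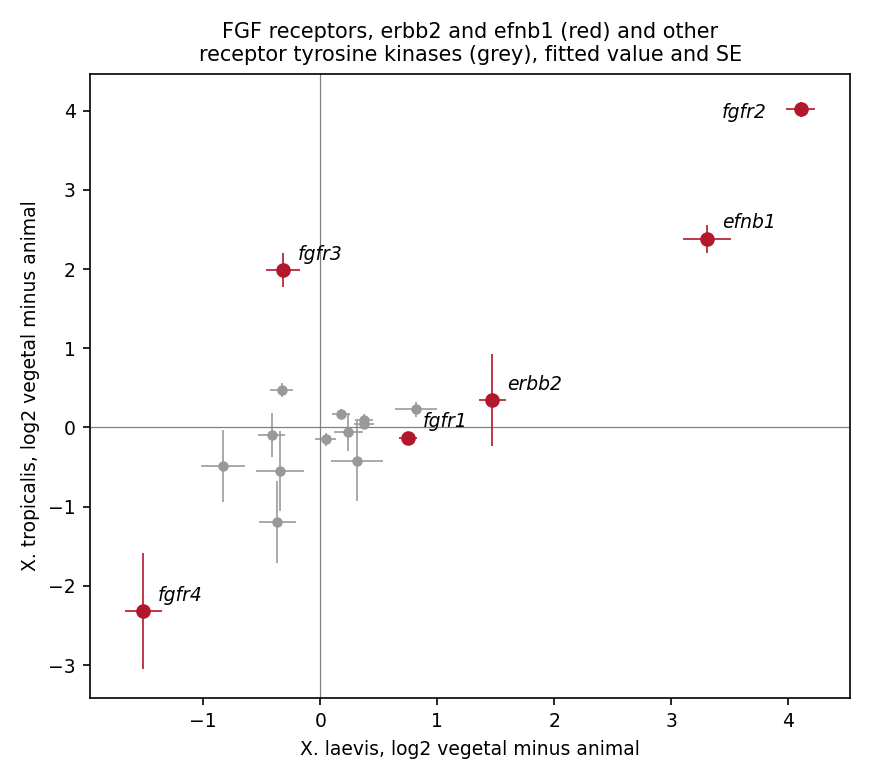
Fitted vegetal minus animal difference (log2, ± SE) in X. laevis (horizontal axis) and X. tropicalis (vertical axis) for the FGF receptors, erbb2 and the ligand gene efnb1 in red. In grey are the 12 listed other receptor tyrosine kinases tested in both species, a list without Eph and other ErbB receptors. The grey points gather around 0, fgfr2 and efnb1 lie at the upper right, fgfr4 at the lower left, and fgfr3 lies high on the X. tropicalis axis alone.

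Between the species, the mean level over all libraries was close for 3 genes and far apart for the others. The mean CPM of X. laevis was 0.780-fold that of X. tropicalis for fgfr1, 0.758-fold for fgfr2 and 0.896-fold for efnb1, beside a median of 1.02-fold over 11688 models measured in both. It was 5.35-fold for fgfr3 (28.8 against 5.39 CPM), 16.1-fold for fgfr4 (6.57 against 0.407 CPM) and 44.4-fold for erbb2 (24.3 against 0.546 CPM). The erbb2 ratio ranked 19 from the X. laevis end, and 3.04% of models had a ratio of 10 or more. Species, number of gene copies, sequence match to the models and library set differ together here and cannot be told apart.

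A comparison that played no part in picking the genes is that between the X. laevis females. Female B had more erbb2, fgfr3, fgfr1 and fgfr4 mRNA than female A and less fgfr2 mRNA. For this test the counts of both hemispheres of a batch were summed, which left 2 batches a female, and 29.4% of 15782 models were called (16.2% with female B higher and 13.2% with female A higher). Of the 6 genes, 4 were called higher in female B and 1 in female A. The p-values measure the spread between batches of 1 animal, so they concern these 2 females, and anything else that differed between them in handling cannot be told apart from the animal.

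The gene with the largest difference was erbb2. Its level over both hemispheres was 12.9 (A_t1) and 15.8 CPM (A_t2) in female A and 31.1 (B_t1) and 36.4 CPM (B_t2) in female B. Every batch of female B was above both of female A, with a log2 difference of 1.23 ± 0.15 (B minus A, adjusted p = 2.39e-05, edgeR). The level of fgfr2 was 61.0 (A_t1) and 87.5 CPM (A_t2) against 38.4 (B_t1) and 33.5 CPM (B_t2), a difference of -1.05 ± 0.16 (adjusted p = 0.000227, edgeR). Thus fgfr2 alone among the 6 was lower in female B. That of fgfr3 was 22.5 and 21.7 against 34.2 and 36.1 CPM (0.67 ± 0.13, adjusted p = 0.00126, edgeR).

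Smaller differences were found for fgfr1 and fgfr4. For fgfr1 the levels were 102 and 129 CPM in female A and 182 and 159 CPM in female B (0.56 ± 0.14, adjusted p = 0.00575, edgeR). For fgfr4 they were 5.55 and 5.22 against 7.56 and 8.01 CPM (0.53 ± 0.16, adjusted p = 0.02, edgeR). Without 1 batch the fgfr4 difference ran from 0.49 (A_t2) to 0.59 (B_t1). For efnb1 the levels were 8.34 and 10.7 against 11.5 and 15.04 CPM, and the difference of 0.48 ± 0.17 was not called (adjusted p = 0.0538, edgeR). The efnb1 difference was called under some other settings, among them DESeq2 (0.48, adjusted p = 0.047), but not with RLE size factors (0.48, adjusted p = 0.0543, edgeR). Without 1 batch of female A it was 0.31 (A_t1) or 0.67 (A_t2), and without 1 of female B 0.67 (B_t1) or 0.27 (B_t2). These fits leave 1 batch in a female, so only the size is given.

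The female difference had the same sign in the animal and in the vegetal libraries taken alone for each of the 6 genes. In animal libraries all 6 were called, from -0.63 ± 0.17 (fgfr2) to 0.97 ± 0.22 (efnb1), with adjusted p from 0.000214 to 0.0402 (edgeR). In vegetal libraries alone fgfr2 (-1.09 ± 0.17, adjusted p = 0.0142) and erbb2 (1.34 ± 0.20, adjusted p = 0.0119) were called. There fgfr1 (0.59 ± 0.17), fgfr3 (0.41 ± 0.21), fgfr4 (0.94 ± 0.25) and efnb1 (0.43 ± 0.26) were not, with adjusted p from 0.0647 to 0.37 (edgeR). Over all models, 2491 (B higher) and 1980 (A higher) were called in animal libraries alone, and 891 and 604 in vegetal ones. With the hemispheres summed these were 2558 and 2081, or 16.2% and 13.2% of 15782 models tested. Nothing is read from the number of the 6 genes called in each.

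Some genes listed as markers of other cells differed between the females too. The summed level of 10 blood and endothelial markers was 11.3 to 14.3 CPM in libraries of female A and 39.5 to 44.1 CPM in those of female B. Most of the gap lay in tek, an angiopoietin receptor, at 1.74 to 2.02 against 25.5 to 28.5 CPM. The endothelial cadherin cdh5 went the other way, at 0.509 to 1.05 against 0.14 to 0.437 CPM (log2 difference -1.20, adjusted p = 0.0135, edgeR), and tie1 had a value of -1.08 that was not called (adjusted p = 0.127). Of the list, 6 of the 10 were under 1 CPM in every X. laevis library and hba1 was at 0. The sum of 9 connective tissue markers was 53.1 to 110 against 96.97 to 180 CPM, led by the matrix gene fn1, and col1a1 was at or under 0.0317 CPM. The follicle marker sum was 81.7 to 99.5 against 147 to 155 CPM in animal and 296 to 323 against 324 to 367 CPM in vegetal libraries. Nearly all of it was cyp17a1, whose difference was not called (0.30, adjusted p = 0.0623, edgeR). Of that list 8 of the 10 were under 1 CPM in every X. laevis library. The only follicle marker called was amh, higher in female B but at 0.787 CPM or less. Of the follicle list 5 markers were tested, of the connective list 6 and of the blood and endothelial list 7. Those called higher in female B were 1, 1 and 2, and in female A 0, 0 and 1. Over all models 16.2% and 13.2% were called, so nothing is read from these counts. The part of such cells in the female differences was not tested.

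**Figure D4:**
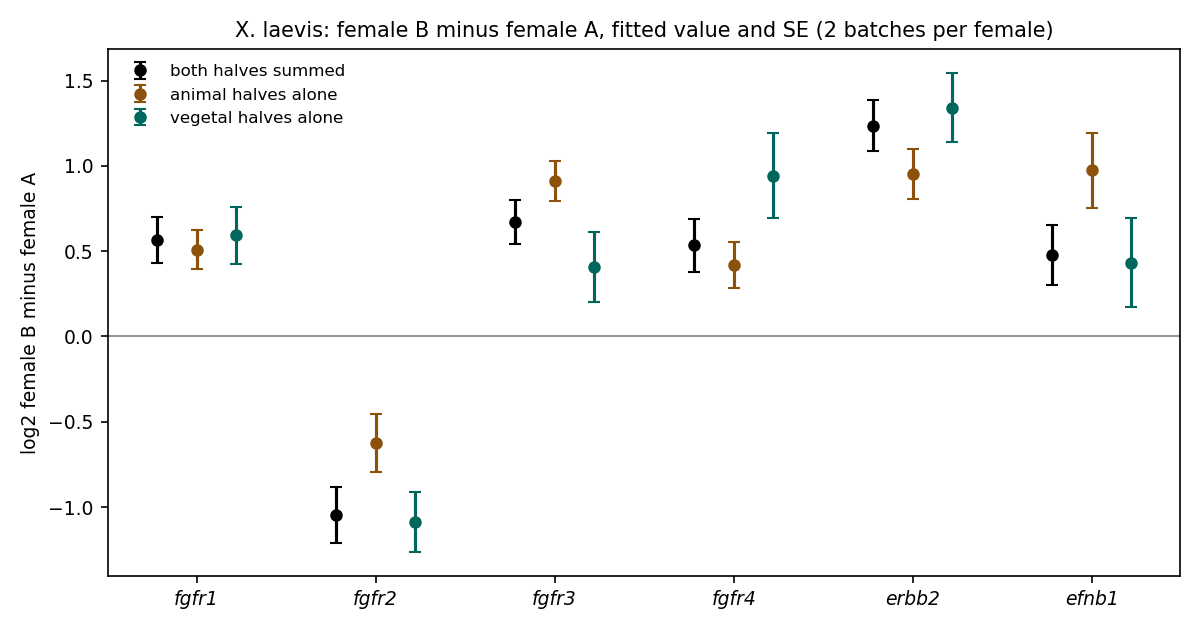
Female B minus female A difference (log2, fitted value ± SE, 2 batches a female) of each gene in X. laevis, for the summed hemispheres (black), animal libraries alone (brown) and vegetal libraries alone (green). Every value of fgfr2 lies below 0 and every value of the other genes above it.

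The pathway around these genes was followed through lists drawn up from general knowledge, some members of which were known to be localized from earlier results on these data. FGF ligands were mostly near or under the detection limit: of 14 in the annotation 4 were tested in X. laevis and 3 in X. tropicalis, and 0 were called (0 also at an unadjusted p under 0.05 and with DESeq2). The same held for the 11 other ErbB receptors and ErbB ligands, of which 4 and 3 were tested and 0 called by either tool or at an unadjusted p under 0.05. The counts that follow stand beside 13.2% vegetal and 14.4% animal calls over all models in X. laevis and 15.6% and 17.3% in X. tropicalis, and nothing is read from counts near those shares. Of FGF co-receptors and heparan sulfate carriers, 1 of 15 was vegetal and 1 animal in X. laevis (0 and 1 with DESeq2), and 1 and 2 of 11 in X. tropicalis (0 and 0 with DESeq2). The glypican gpc4, which carries heparan sulfate, was animal in both (-0.63 ± 0.11, adjusted p = 0.0039, and -1.05 ± 0.24, adjusted p = 9.88e-05, edgeR), though its X. tropicalis call was lost with DESeq2 (adjusted p = 0.231).

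Of 20 listed members of the relay from receptor to ERK, 18 were in the annotation and all 18 were tested in each species. In X. laevis 6 were vegetal and 2 animal, and in X. tropicalis 2 were vegetal and 3 animal (edgeR, adjusted p under 0.05). With no block these were 3 and 2 in X. laevis and 0 and 0 in X. tropicalis. Over all models the calls with no block were 899 and 1130 of 14517 in X. laevis and 174 and 88 of 12916 in X. tropicalis. Nothing is read from the drop in the list. The scaffold ksr1 was vegetal in both (0.57 ± 0.10 and 1.00 ± 0.12). The MEK gene map2k1, which acts just upstream of ERK, was animal in both (-1.40 ± 0.11 and -0.61 ± 0.07). Among 15 feedback inhibitors, 3 were vegetal and 2 animal in X. laevis, and 3 and 3 of 13 in X. tropicalis. The ubiquitin ligase rnf41, which in mammals degrades an ErbB2 partner receptor, was vegetal in both species. Its values were 1.34 ± 0.08 (X. laevis, adjusted p = 2.49e-05, edgeR) and 2.28 ± 0.08 (X. tropicalis, adjusted p = 2e-64, edgeR). With 2 pairs, that X. tropicalis p-value draws mostly on a spread shared by all models and is no measure of the spread between females. With no block for the female the rnf41 call was kept, at a much higher adjusted p. The FGF receptor antagonist il17rd, also known as Sef, was animal in both (-0.54 ± 0.08 and -0.29 ± 0.09), and its X. tropicalis call was lost with DESeq2 (adjusted p = 0.226).

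Around efnb1, 1 of 11 other ephrins and Eph receptors was vegetal and 1 animal in X. laevis, and 0 and 1 of 9 in X. tropicalis (edgeR; 0 vegetal also at an unadjusted p under 0.05 and with DESeq2). The animal one was ephb3, a receptor for B-type ephrins, in both species (-0.32 ± 0.08, adjusted p = 0.0204, and -0.41 ± 0.08, adjusted p = 2.38e-06). Of proteins that bind ephrin-B tails or act behind them, 3 of 14 were vegetal and 1 animal in X. laevis, and 4 and 0 of 13 in X. tropicalis (edgeR; 0 animal also at an unadjusted p under 0.05 and with DESeq2). The 4 vegetal calls in X. tropicalis became 1 with no block for the female, where 174 of 12916 models were called vegetal. The PDZ protein grip2 (8.35 ± 0.16 and 6.90 ± 0.10) and the G protein regulator rgs3 (1.67 ± 0.22 and 0.97 ± 0.07), both known to bind ephrin-B in mammals, were vegetal in both. With the females not kept as a block, the X. tropicalis calls of gpc4, ksr1, map2k1, il17rd, ephb3 and rgs3 were lost, and with no batch block so were the X. laevis calls of gpc4, ksr1 and ephb3. The X. laevis call of ephb3 was also lost without batch A_t2 (adjusted p = 0.147) and without batch B_t2 (adjusted p = 0.0984).

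For each gene, the named models most like it were sought by Pearson's r over the 12 libraries, on log2 CPM centred on the mean of each species, among about 7331 models with at least 5 CPM in both species. These r describe a shared course over the libraries, which share hemisphere, female and depth, and they carry no p-value. The nearest to fgfr2 were the endosomal GTPase rab5b (r = 0.993) and nat6 (0.991). Their courses were alike but their sizes were not: rab5b differed between hemispheres by 0.67 in X. laevis and 0.73 in X. tropicalis, and nat6 by 3.67 and 2.97. Near to efnb1 was the sodium pump subunit atp1b1 (0.995), with vegetal differences of 2.07 in X. laevis and 1.30 in X. tropicalis.

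The nearest to fgfr1 were the chromatin protein gatad2a (0.983) and phactr3 (0.978), to fgfr3 the ubiquitin ligase rnf128 (0.976) and greb1l (0.964), and to erbb2 the cadherin cdh3 (0.975) and ddx26b (0.965). The hemisphere differences of the pair nearest to fgfr3, which were picked for a course like its own, were -0.19 and -0.22 in X. laevis and 1.31 and 1.43 in X. tropicalis. The nearest to fgfr4 were the epidermal factor grhl1 (0.953) and wdr59 (0.951), and grhl1 had animal differences of -1.18 and -1.97. Among the 6 genes themselves, erbb2 and fgfr1 had the highest r (0.899), followed by fgfr2 and efnb1 (0.873). The lowest were those of fgfr4 with fgfr2 (-0.936) and with efnb1 (-0.816). The genes were picked with their hemisphere levels known, and these r also take in differences between females, so nothing is read from their signs.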

How the data were processed

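RNA was measured in 12 libraries of oocyte hemispheres. The authors deposited 1 file a library, with unnormalized counts of reads on 28165 gene models. Bowtie2 2.1.0, edgeR and DESeq appear in the submitters' processing notes. The sources used here do not give the genome build, the counting program or the use of strand. Symbols come from the deposited annotation, and a table of X. laevis genes (assembly Xenopus_laevis_v10.1) was used for copy names.

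The analysis of these counts used R 4.3.3 with edgeR 4.0.16 and limma 3.58.1: filterByExpr per species, TMM factors, quasi-likelihood F test, Benjamini-Hochberg over all models tested. A model was called at an adjusted p under 0.05. Batch (X. laevis) or female (X. tropicalis) was a block, since the labels tie the hemispheres to it. Paired libraries deviated together from their group means (correlations from 0.668 to 0.904). No 2 libraries of a group agreed within sampling noise (chi-square per degree of freedom of 12.1 or more). With 2 pairs, X. tropicalis p-values draw mostly on a spread shared by all models. The female test used summed hemispheres, and with 4 batches its p-values also draw on a spread shared by all models. The species difference used 6 blocks. Standard errors were derived from the F statistic, and pair values are log2 CPM with a prior count of 2. DESeq2 1.42.0 was an alternative. The scripts were tested on simulated data. Figures were drawn with matplotlib 3.10.9.

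The 6 genes and the lists were chosen with earlier results of these data known. Named genes are the 6, the 2 models most like each, and at most 2 called members per list, species and direction with the lowest adjusted p; kdr, ddr1, flt3 and ryk as ends of a range, and marker genes, were named after their values were seen. Some genes that the rule names are not reported here. Sequences were not used here.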

Additional observations from a re-analysis of the deposited data

Results flagged for a closer look

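The vegetal minus animal difference of fgfr1 and that of fgfr3 stood out because each passed the test of a difference between the species. For fgfr1 it was -0.87 ± 0.12 on the log2 scale (X. tropicalis minus X. laevis), with all 4 X. laevis pairs above 0 and both X. tropicalis pairs below. For fgfr3 it was 2.29 ± 0.32, with both X. tropicalis pairs at 1.57 or more and all 4 X. laevis pairs at 0.08 or less. Of all models tested 12.5% passed. The genes were picked with these values known, so nothing is read from their passing. Both calls were lost without X. tropicalis female 2. No library stood apart from the other 3 of its X. laevis group for any of the 6 genes.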

How the results depend on the processing

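No hemisphere difference of the 6 genes changed sign in either species under the settings tried, and fgfr2 ran from 3.88 to 4.32 in X. laevis and from 3.94 to 4.24 in X. tropicalis. The values of efnb1 in X. tropicalis ran from 1.16 to 3.64. The counts of called models moved more. Without the replicate block, X. laevis had 899 vegetal and 1130 animal models (1922 and 2095 with it), and X. tropicalis 174 and 88 (2020 and 2236 with it). DESeq2 gave 1011 and 1097 in X. tropicalis. Leaving out 1 X. laevis batch gave 797 (A_t2) to 2070 (A_t1) vegetal and 914 (A_t2) to 2171 (A_t1) animal models, and 1175 vegetal without B_t2. Female A alone gave 1094 vegetal models, and female B alone 874 vegetal and 1139 animal. Leaving out 1 X. tropicalis library and the replicate block gave 339 and 259 (animal 1), 293 and 288 (animal 2), 143 and 21 (vegetal 1) and 113 and 13 (vegetal 2). There a group of 1 library is assumed to vary like the other group, and ephb3 (0.17), ryk (-0.013) and sdc1 (0.49) changed sign without animal 1. With library totals as the only scaling, X. laevis had 1442 vegetal and 2619 animal models and X. tropicalis 1436 and 2743. Under that scaling fgfr1 was called animal in X. tropicalis (-0.19 ± 0.06), and in the main fit it was not called (-0.13 ± 0.06).

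In vegetal libraries alone the females differed in 891 (B higher) and 604 models, beside 2558 and 2081, and fgfr1 (0.59), fgfr3 (0.41) and fgfr4 (0.94) were not called. The efnb1 difference between females was called with DESeq2 (0.48), library totals (0.52), no filter (0.47) and animal libraries alone (0.97). Leaving out a batch gave 0.27 to 0.67 for efnb1 and 0.49 to 0.59 for fgfr4. Differences between the species were called for 674 (more vegetal in X. tropicalis) and 783 models. These became 188 and 169 without X. tropicalis female 1, 142 and 150 without female 2, and 397 (A_t2) to 923 (B_t1) and 475 (A_t2) to 1091 (B_t1) without 1 X. laevis batch. The causes of these moves were not tested. Depth limits fgfr4 and erbb2 in X. tropicalis, and 2 females a species limit every comparison.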
